A study of Mus musculus with 20 samples.

Results

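Ribosomes captured through the protein RPL10A were compared with all ribosomes of the same cells. The comparison rests on 4 of the 20 libraries of the series, chosen by their titles: 2 libraries of the RPL10A capture and 2 libraries of total ribosomes. All 8505 transcripts listed in these libraries entered it. The cells were E14, a line of mouse embryonic stem cells (pluripotent cells from the early embryo), carrying 1 allele of 3xFLAG-Rpl10a at its own locus. Both groups came from this tagged line and both received cycloheximide, which freezes ribosomes on their mRNAs, at 100 µg/ml for 1 min before harvest. For the capture, RNase-treated lysate was incubated with anti-FLAG beads for 2 h. For the total, ribosomes of treated lysate were pelleted through a sucrose cushion. The other allele is untagged, so the capture targets only ribosomes that carry the tagged copy. No capture from untagged cells was used here, and what the beads hold without a tag was not measured. The labels do not say whether the line is a single clone. For comparison, the same kinds of libraries (2 captures and 2 totals each) came from E14 cells with 1 allele of Rps25-3xFLAG, captured on the same beads, and with 1 allele of Rpl22-3xHA, captured with an anti-HA antibody for 4 h. RPS25 is a protein of the small subunit and RPL22 one of the large subunit. A further 8 libraries were RNA-seq of polysome fractions from wild-type E14 cells given Rpl10a siRNA or control siRNA. All these cells received the same cycloheximide treatment.

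Ribosome profiling sequences the short mRNA fragments that a ribosome shields from RNase, so the fragments of a transcript report both how abundant it is and how many ribosomes it carries. RPL10A belongs to the large ribosomal subunit and forms part of the L1 stalk, a mobile arm beside the site where spent tRNA leaves. Ribosomes are classically treated as having a fixed set of proteins. The series title proposes that ribosomes differ in composition and select different mRNAs, and the capture asks which transcripts carry more, or fewer, RPL10A-containing ribosomes than ribosomes in general.

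Levels were deposited as RPKM, reads scaled by transcript length and by library size. The ratio used throughout is the mean log2(RPKM + 1) of the captures minus that of the totals, so it places a transcript among the rest of its library and says nothing of the absolute share of ribosomes captured. Calls were made with limma, fitted to the 4 libraries, where the adjusted p (Benjamini-Hochberg) fell below 0.05. Transcripts carry UCSC identifiers, and none of the 8505 was matched in the gene tables used here. No gene name, gene group, sequence or stem cell marker could therefore be given, and 2 transcripts per direction are named. Library medians lay between 24.1 and 24.9 RPKM. The read depth is unknown, since the files hold no counts.

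The captured and total profiles were close. On log2 values, the captures correlated with each other at r = 0.978 and the totals at r = 0.988 across transcripts. A capture and a total correlated at r = 0.954 to 0.975. The first capture library differed from the other capture by a median of 0.228 per transcript on the log2 scale, and from the second total library by 0.249. The totals differed from each other by 0.200, and the second capture from the second total by 0.291. The first total library stood farther from the captures, at 0.345 from the first and 0.379 from the second. Over all transcripts the ratio had a median of 0.00, quartiles of −0.27 and 0.29, and an SD of 0.46, and it was above 0 in 50.2% of transcripts. In 56.7% both captures lay on the same side of both totals.

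**Figure D1:**
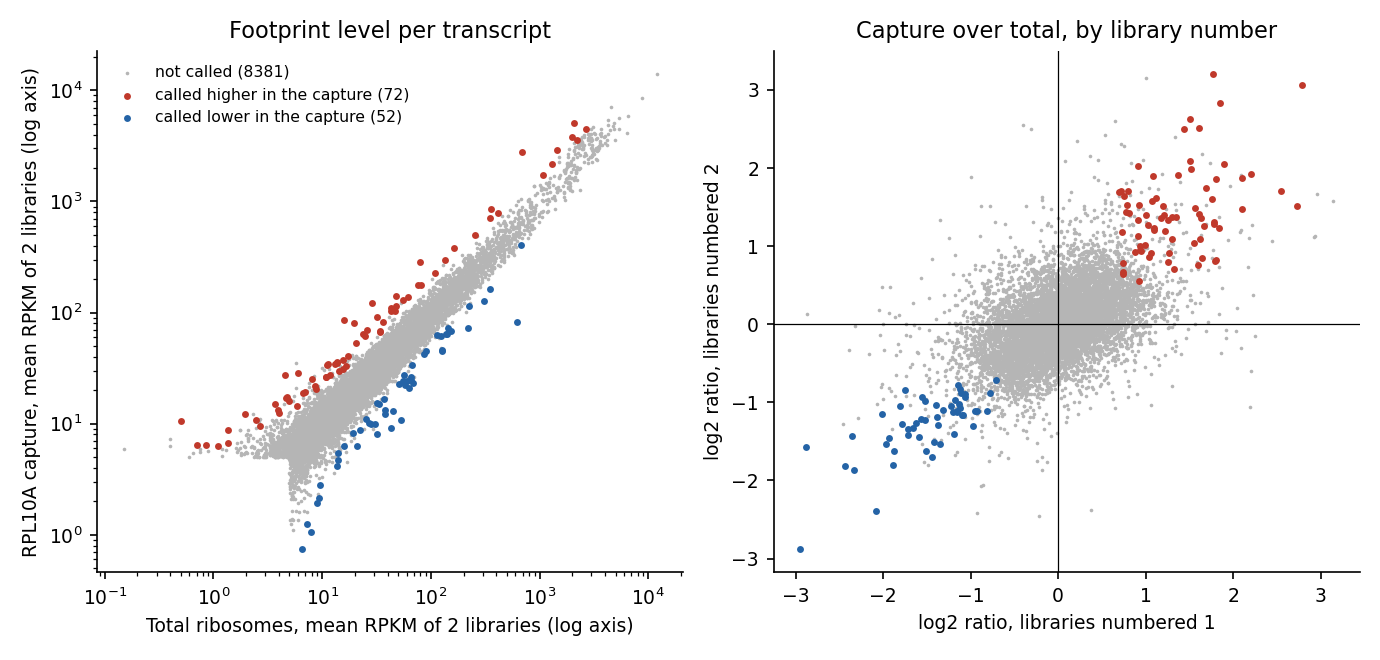
Left, mean RPKM of the 2 RPL10A captures against mean RPKM of the 2 total libraries for each of 8505 transcripts, both axes logarithmic. Right, the log2 capture-over-total ratio from the libraries numbered 1 against that from the libraries numbered 2. The 72 transcripts called higher have the capture above the total and the 52 called lower have it below, mixed with uncalled transcripts of similar ratio.

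Against this narrow spread, 72 transcripts were higher and 52 were lower in the RPL10A capture than in total ribosomes. These are 0.847% and 0.611% of the 8505 tested, and 1.46% together (limma, adjusted p below 0.05). The ratios of the higher transcripts ran from 0.70 to 2.92, with quartiles of 1.12 and 1.57. Those of the lower ones ran from −2.91 to −0.71, with quartiles of −1.56 and −1.12. Before adjustment, 2070 transcripts (24.3%) had a p below 0.05. The counts depend on the model and the test: 38 were called without a variance trend (23 higher and 15 lower), 6 in a test against 1.5-fold, and 1302 of 7605 common transcripts in a fit of all 12 ribosome libraries, where the balance was 577 higher and 725 lower. They also depend on having both libraries of each group: without either capture library or without either total library, a fit with a lone library in 1 group called 0.

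Counting by size needs no test, but it uses the same ratios of the same 4 libraries, so it does not support the calls. A ratio of at least 2-fold was reached by 170 transcripts in the higher direction and 124 in the lower. In 61 and 31 transcripts, each of the 4 pairings of a capture with a total library reached 2-fold, and 35 and 24 of these were called. At 3-fold in each pairing, 9 transcripts were higher and 4 lower, and each of them was called.

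The named transcripts were those with the largest ratios among calls of at least median level, with the higher library at most 25% above the lower one in both groups. The agreement between libraries was met by 23 of the 72 higher and 16 of the 52 lower calls, and both conditions by 15 and 11. These conditions were applied to the RPL10A-line libraries themselves. The separation, small SE and low p-value given below for the RPL10A ratio therefore follow in part from the choice and support nothing further. What these RNAs encode was not analysed here.

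The transcript uc009jsd.1 had 74.8 and 86.0 RPKM in the RPL10A captures, against 19.4 and 19.9 RPKM in the totals. Both captures stood well above both totals (log2 ratio 1.98, SE 0.18, n = 2 each, limma adjusted p = 0.00383). In the RPS25 line it had 39.2 and 27.3 RPKM in the captures and 21.9 and 23.0 RPKM in the totals, and in the RPL22 line 129.7 and 117.2 RPKM in the captures and 82.8 and 108.8 RPKM in the totals. The captures were thus the higher side in all 3 lines, but by less in the other lines (log2 ratios 0.52, SE 0.20, limma adjusted p = 0.219, and 0.37, SE 0.13, limma adjusted p = 0.166). Its RPL10A ratio exceeded the RPL22 ratio (difference 1.60, SE 0.25, limma adjusted p = 0.0288), and against the RPS25 ratio the difference was 1.45 (SE 0.25, limma adjusted p = 0.0791). The RPL10A-line libraries that chose this transcript enter both differences, so they describe it and are no independent support. The difference from RPL22 had adjusted p-values of 0.0548 to 0.115 in limma when the first RPL10A total, either RPS25-line total, or any of the 4 RPL22-line libraries was left out.

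The transcript uc008uzd.1 had 254.1 and 314.5 RPKM in the RPL10A captures, against 72.3 and 85.6 RPKM in the totals (log2 ratio 1.83, SE 0.18, n = 2 each, limma adjusted p = 0.00383). The groups did not overlap, which held for 56.7% of all transcripts. It was not listed in the RPS25 table. In the RPL22 line it reached 597.5 and 583.5 RPKM in the captures and 522.5 and 499.0 RPKM in the totals (log2 ratio 0.21, SE 0.08, limma adjusted p = 0.198). Its level in total ribosomes was therefore several times as high in the RPL22 line as in the RPL10A line. The lines may have been normalized separately.

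In the other direction, uc009vfb.1 had 77.8 and 86.5 RPKM in the RPL10A captures, against 606.7 and 640.3 RPKM in the totals. This was the lowest ratio of the table (−2.91, SE 0.15, n = 2 each, limma adjusted p = 6.38e-05). It was low in the other captures too, with 66.3 and 37.4 RPKM against 600.4 and 517.2 RPKM in the RPS25 totals, and 22.6 and 152.1 RPKM against 457.3 and 389.3 RPKM in the RPL22 totals. The ratio of this transcript did not pass a test of difference from RPS25 (0.55, SE 0.83, limma adjusted p = 0.848) or from RPL22 (−0.10, SE 0.83, limma adjusted p = 0.959). In this fit of 12 libraries the standard errors would hide changes of over 2-fold. With only the 8 libraries of the RPL10A and RPS25 lines, the SE of the difference from RPS25 was 0.31 (limma adjusted p = 0.753). The difference from RPL22 was 1.253 without the second RPL22 capture and 0.02 without the second RPL22-line total, so its direction rested on single libraries.

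The transcript uc029sdt.2 had 74.5 and 71.2 RPKM in the RPL10A captures, against 204.8 and 232.9 RPKM in the totals (log2 ratio −1.57, SE 0.16, n = 2 each, limma adjusted p = 0.00451). In the RPS25 line it had 72.9 and 31.0 RPKM in the captures and 101.8 and 91.8 RPKM in the totals. In the RPL22 line it was scarce in both, at 2.9 and 4.0 RPKM in the captures and 6.2 and 7.7 RPKM in the totals. The capture was the lower side in each line, while the total level itself ranged widely between lines. Its ratio was −1.01 in the RPS25 line (SE 0.36, limma adjusted p = 0.199). In the RPL22 line it was −0.84 (SE 0.19, limma adjusted p = 0.116), and neither was called. The RPL10A ratio did not pass a test of difference from RPS25 (−0.57, SE 0.41, limma adjusted p = 0.654) or from RPL22 (−0.73, SE 0.41, limma adjusted p = 0.304).

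**Figure D2:**
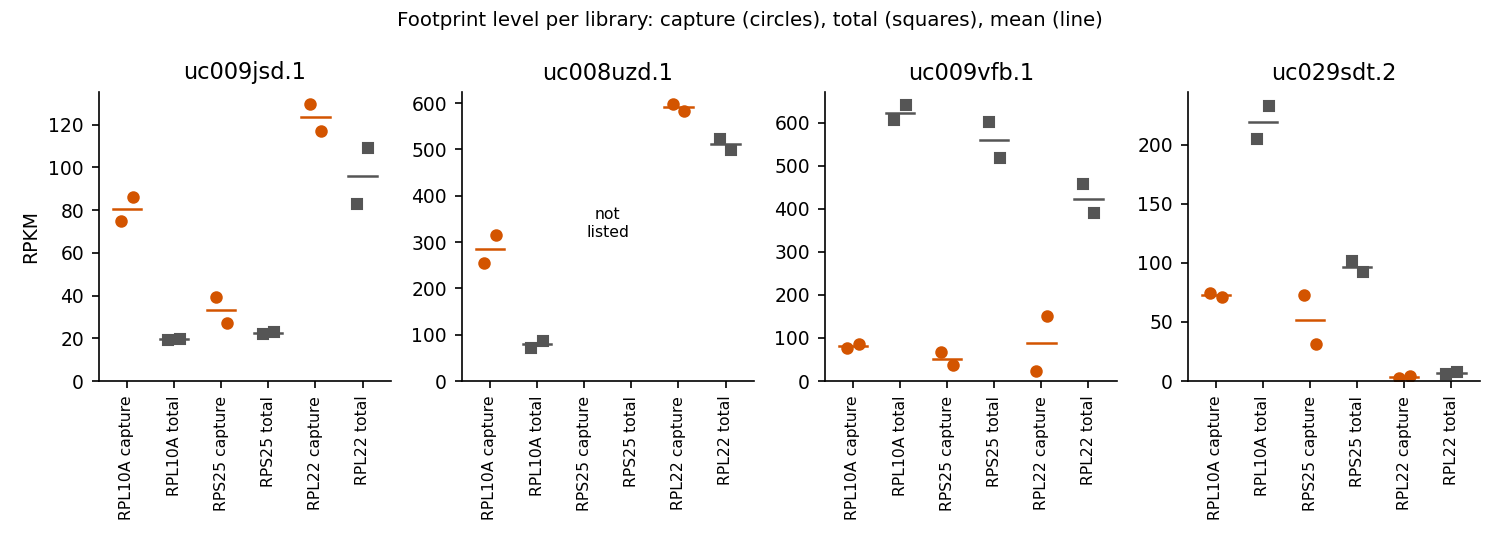
RPKM of the 4 named transcripts in each of the 12 ribosome libraries, captures as circles left of their totals as squares, with the mean as a line. For uc009vfb.1 every capture library lies below every total library of its line, whereas for uc009jsd.1 and uc008uzd.1 the RPL22 totals lie above the RPL10A totals.

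The calls were spread over the abundance range. Transcripts were divided into 10 classes of equal size of mean RPKM. The lowest class, up to 6.30 RPKM, held 7 higher and 6 lower calls, and the highest class, from 198.2 RPKM, held 14 higher and 4 lower calls. The share called higher was 1.65% in the highest class and at most 1.06% in any other. The median ratio was −0.05 in the highest class and 0.11 in the lowest. That tilt of −0.16 on the log2 scale was −0.03 without the second capture library and −0.05 over transcripts of at least 10 RPKM.

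The captures were noisier than the totals among scarce transcripts. In the lowest class the capture libraries differed by a median of 0.392 on the log2 scale and the totals by 0.317. In the highest class the values were 0.164 and 0.172. Precision thus improved with level, with a median SE of the ratio of 0.156 in the highest class and 0.305 in the lowest.

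**Figure D3:**
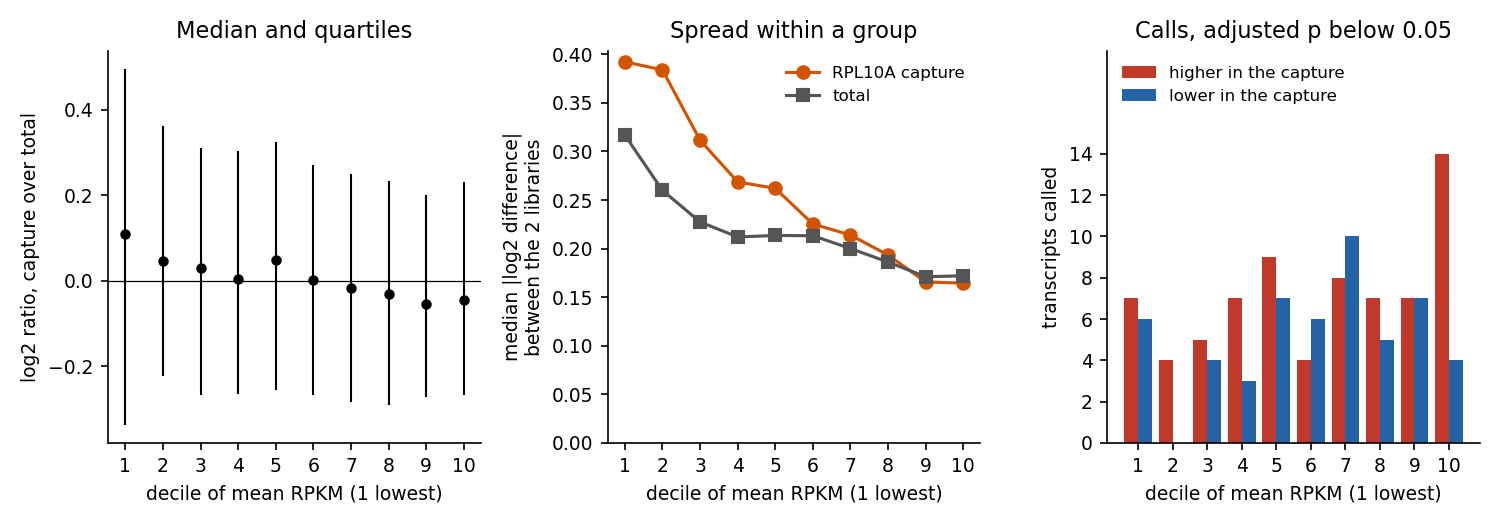
The 10 classes of mean RPKM, from lowest to highest: median log2 ratio with quartiles (left), median difference between the 2 libraries of each group (middle), and transcripts called (right). The capture libraries spread more than the totals in the low classes, and the highest class holds 14 of the 72 higher calls.

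Some transcripts entered the table through 1 group. Each listed transcript reached at least 5.1 RPKM in 1 or more of the 4 libraries. In 311 transcripts this level was reached in a capture only, which favours a lean toward the capture. Of these, 13 (4.18%) were called higher, against 0.847% of all transcripts. In 186 it was reached in a total only, and 7 (3.76%) were called lower, against 0.611% of all. The other 8008 transcripts held 59 of the higher and 45 of the lower calls.

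The called transcripts made up a small part of the footprint signal. The 72 higher ones held 2.94% and 3.03% of summed RPKM in the RPL10A captures, against 1.40% and 1.60% in the totals. The single most abundant of them accounted for 0.465% and 0.445% in the captures, against 0.235% and 0.250% in the totals. The 52 lower ones held 0.187% and 0.170% in the captures, against 0.470% and 0.425% in the totals. These shares describe lists chosen on the same libraries.

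The deposited tables carry an order of their own. All 4 RPL10A libraries list transcripts in the same sequence, in 3 runs. The first 215 rows have the capture higher and are sorted by falling ratio of mean RPKM, from 5.31 to 0.76 on the log2 scale. The next 183 rows have the capture lower and run from −3.12 to −0.76. The remaining 8107 rows rise from −1.37 to 2.10. The smallest ratio in the leading runs corresponds to 1.69-fold, in both directions. No source used here says what the runs stand for. The RPS25 tables have runs of 109 and 56 rows built in the same way, and the RPL22 tables begin with runs of 10 and 7.

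Of the 72 higher calls 69 stood in the first run, which held 215 of the 8505 transcripts. Of the 52 lower calls 51 stood in the second, which held 183. Runs and calls follow ratios of the same 4 libraries, so this overlap is a description and supports neither. Size alone did not place a transcript in these runs, as 208 higher and 161 lower transcripts outside them had ratios as large. In those, the capture libraries differed by a median of 1.51-fold, against 1.36-fold in the first run and less in the second. In the first run 28 transcripts were also in the first run of the RPS25 table, which is 13.0% of the RPL10A run and 25.7% of the RPS25 run. They are 19.2% of the 146 members listed in the RPS25 table, and 1.01% of all 8090 transcripts listed in both tables are in that RPS25 run. For the second runs the shared number was 12, or 6.56% and 21.4%. They are 7.45% of the 161 members listed, against 0.532% of all. The RPL22 runs were too short for such a comparison.

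**Figure D4:**
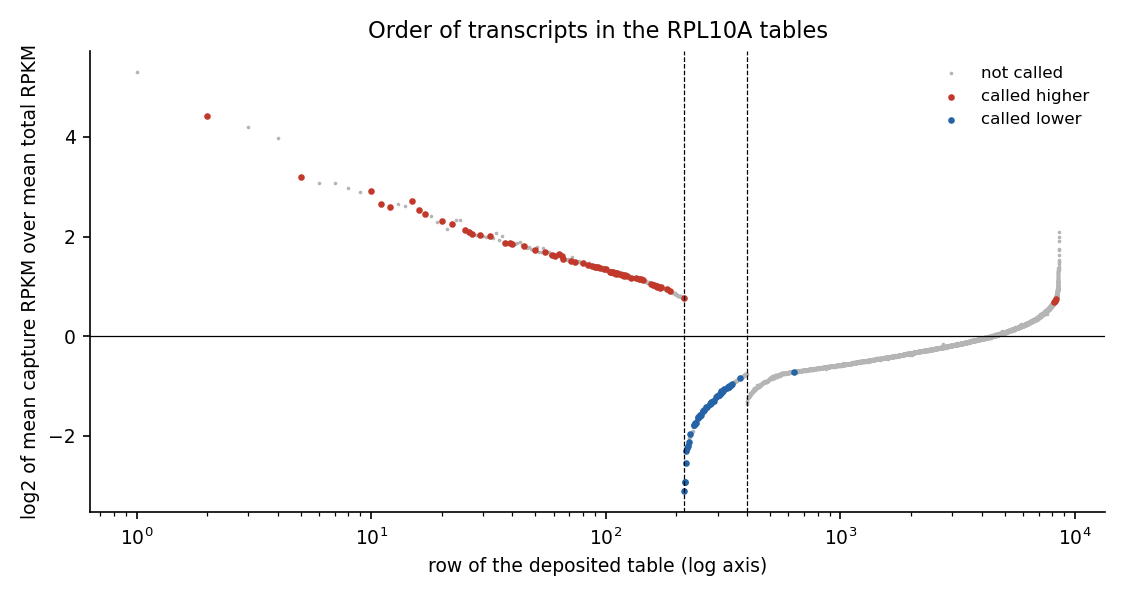
Log2 ratio of mean capture RPKM to mean total RPKM against the row of the deposited table (logarithmic axis), with dashed lines after rows 215 and 398. Called transcripts cluster in the first 2 runs, and large ratios recur at both ends of the third.

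The RPL10A captures were also set against the totals of the RPS25 line in place of their own. The captures chose the lists, so these values are a description and support nothing. Of the 54 higher calls listed there, 52 had both captures above both totals, against 31.2% of all transcripts, with a median log2 difference of 1.09. Of the 45 lower calls listed, 43 had both captures below both totals, against 30.1%, with a median of −1.02. The values of these lines may have been normalized separately.

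The RPS25 capture, made with the same beads from another line, leaned the same way for most members, within wide limits. The ratios of the 54 higher calls ran from −1.64 to 2.72 there, with quartiles of 0.37 and 0.90, and 9 reached 2-fold. Of the 54, 49 (90.7%) had an RPS25 ratio above 0, against 50.8% of the 8090 transcripts listed in both tables. Over all its transcripts the RPS25 ratio was above 0 in 51.5%. The ratios of the 45 lower calls ran from −3.46 to 0.16, with quartiles of −0.64 and −0.30, and 3 reached 2-fold in that direction. Of the 45, 5 (11.1%) were above 0. The RPS25 line itself had 4 calls (0.0456%, and 20.9% with an unadjusted p below 0.05). Of its 3 higher calls (0.0342%) 1 was among the 72, and its 1 lower call (0.0114%), uc009vfb.1, was among the 52. In the RPL22 capture the quartiles were −0.10 and 0.14 for the higher calls and −0.11 and 0.21 for the lower ones, and over all transcripts −0.17 and 0.11. The RPL22 ratio was above 0 in 53.2% of the 62 higher and 53.7% of the 41 lower calls listed, against 43.6% of the 7840 transcripts in both tables. Over all transcripts of the RPL22 line it was above 0 in 44.1%, limma called 0 of them (0%), and 20.2% had an unadjusted p below 0.05.

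Whether a ratio was particular to RPL10A was tested as a difference between lines over the 7605 transcripts common to the 3 tables. In 64 transcripts (0.842%) the RPL10A ratio was the larger of RPL10A and RPL22, and in 113 the smaller (1.49%), by limma at an adjusted p below 0.05, or 82 and 89 after scaling to library totals. The number in both directions together was 11 without a variance trend, 70 with a replicate block and 50 in a fit of the 8 libraries of both lines. Before adjustment 23.8% differed from RPL22 and 10.8% from RPS25. Of the higher calls 49 were tested, and in 28 the RPL10A ratio was called larger than the RPL22 ratio in the fit of 12 libraries. Of the lower calls 36 were tested, and in 28 it was called smaller. Against RPS25, 1 transcript was higher (0.0131%) and 4 were lower (0.0526%), or 1 and 1 with library medians aligned, and these included 1 of the higher and 2 of the lower calls. The RPL22 capture also differed in tag, antibody and incubation time, which cannot be told apart from the line. The lists share their RPL10A libraries with these tests, so the counts describe the lists and do not support them. Without single libraries, each of the 12 in turn, the number of differences ranged from 0 to 727 for RPL22 and from 0 to 32 for RPS25.

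The total ribosomes of the other 2 lines also differed along the RPL10A ratio, although they include none of the 4 libraries. The 49 higher calls measured had more footprints in RPL22-line totals than in RPS25-line totals, with a median log2 difference of 0.59. In 39 of them both RPL22-line totals lay above both RPS25-line totals, against 38.4% of all transcripts. The 36 lower calls measured had a median of −0.72, and in 31 both RPL22-line totals lay below both RPS25-line totals, against 41.2%. Over all 7605 transcripts the median was −0.02. Any pairing of a single RPL22-line total with a single RPS25-line total gave medians from 0.58 to 0.73 for the higher and from −0.81 to −0.67 for the lower calls.

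The shift was present at low and at high levels. Among transcripts at or above the median level the medians were 0.59 for the higher calls, −0.79 for the lower calls and −0.06 for all transcripts, and below it 0.58, −0.58 and 0.04. The first and second runs of the row order gave medians of 0.59 over 119 transcripts and −0.52 over 127. These runs contain 69 of the higher and 51 of the lower calls, so they are not a separate set. Across the 7605 transcripts, the RPL10A ratio and the difference between those totals correlated at r = 0.44 (Spearman rho 0.45), and at r = 0.30 to 0.45 with the RPL10A ratio taken from a single capture and a single total library. Transcripts are not independent replicates, so this is a description. With transcripts sorted by RPL10A ratio into 10 classes, the class of lowest ratios had a median difference of −0.46 and that of highest ratios 0.41.

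The totals of the RPL22 line stood apart in protocol as well: their lysis buffer listed no heparin, and the antibody entry of these samples is anti-HA, at odds with their titles. The part of line, buffer and handling in the relation was not tested, and for these libraries they cannot be told apart. Measured against RPL22-line totals, the RPL10A captures gave a median log2 difference of 0.20 over 62 higher calls and −0.26 over 41 lower calls. The totals of the RPL10A line, which did choose the lists, lay at −1.03 and 1.01 against RPL22-line totals.

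RNA-seq of polysome fractions from wild-type E14 cells gave a further view. mRNAs carrying 4 or more ribosomes formed the heavy pool, and the remaining fractions the light pool, after Rpl10a siRNA or control siRNA. The level of Rpl10a itself could not be read, so the knockdown was not checked. Of the 72 higher calls, 66 (91.7%) appeared in the RNA-seq table and 54 (75.0%) in the RPS25 table, while either table held 95.1% of all 8505 transcripts. Of the lower calls, 41 of 52 (78.8%) were in the RNA-seq table, and neither uc009vfb.1 nor uc029sdt.2 was.

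With Rpl10a siRNA the median heavy-minus-light difference of the 66 higher calls was −0.53 on the log2 scale, against 0.16 for all 8084 transcripts, and 22 were above 0. In 34 of the 66 both heavy libraries lay below both light ones, against 29.9% of all, and in 14 above, against 44.4%. With control siRNA the median was −0.22, against −0.04 for all, with 25 above 0, and in 30 both heavy libraries lay below both light ones, against 41.5%, and in 15 above, against 38.9%. The share below with control siRNA was near that of all transcripts. The quartiles spanned 0 with each siRNA (−0.83 and 0.21 with Rpl10a siRNA, −0.66 and 0.22 with control siRNA). The 41 lower calls had medians of 0.21 with Rpl10a siRNA and −0.13 with control siRNA, near those of all transcripts.

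Among the named transcripts, uc009jsd.1 had deposited RNA-seq values of 29.2 and 24.8 in heavy and 26.2 and 15.4 in light fractions with Rpl10a siRNA, and 44.6 and 50.1 in heavy and 38.8 and 40.3 in light fractions with control siRNA. It was lower in both fractions with Rpl10a siRNA. Heavy and light overlapped with Rpl10a siRNA, and with control siRNA heavy was above light. uc008uzd.1 had 76.9 and 110.9 in heavy and 60.9 and 71.8 in light fractions with Rpl10a siRNA, and 108.3 and 176.8 in heavy and 54.6 and 66.0 in light fractions with control siRNA. It lay on the heavy side with both siRNAs. The difference between the siRNAs was not tested.

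**Figure D5:**
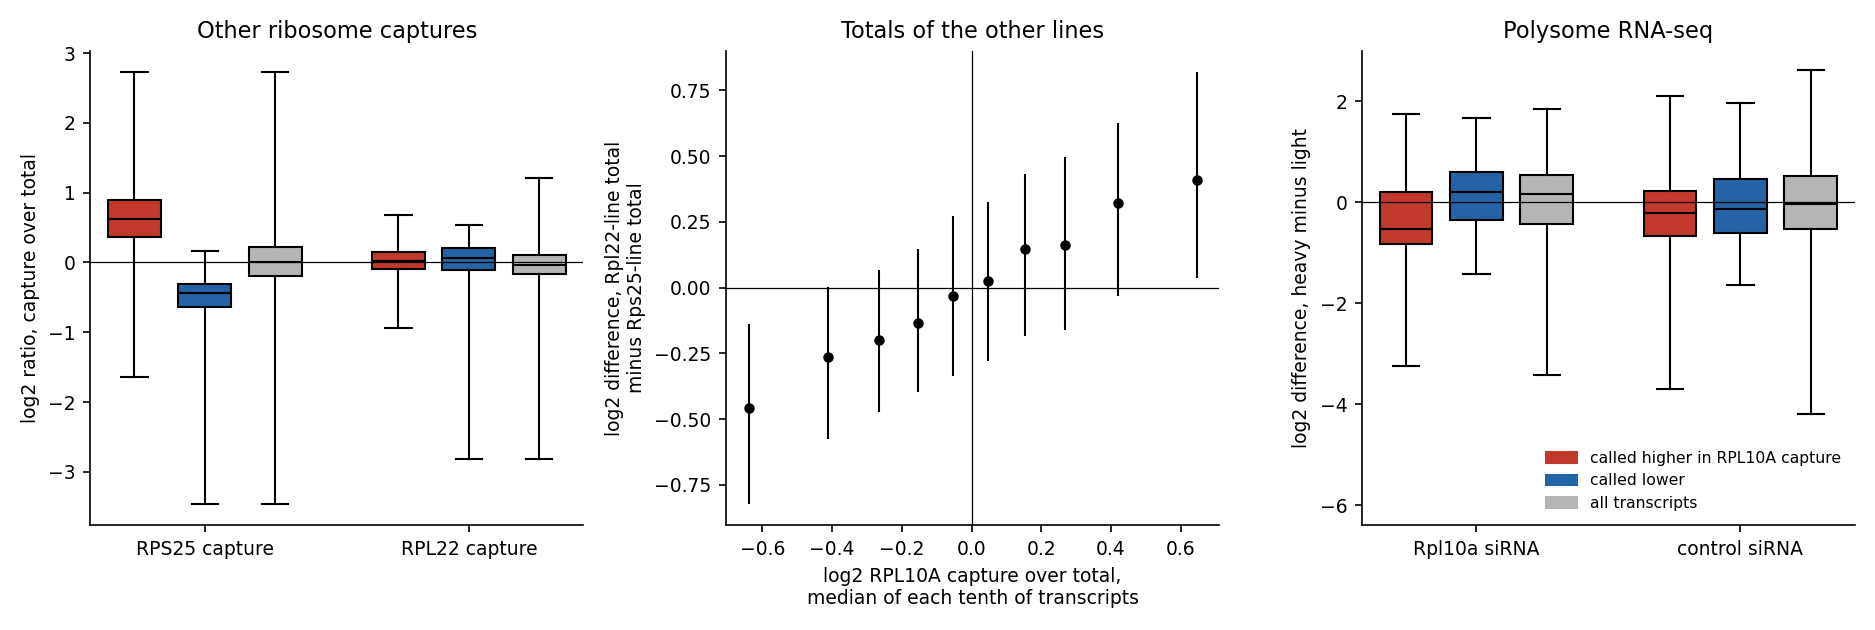
Transcripts called higher (red) or lower (blue) in the RPL10A capture and all transcripts (grey), as boxes with quartiles, median and full range, in the RPS25 and RPL22 captures (left) and in polysome RNA-seq as heavy minus light (right). The middle plot gives, for 10 classes of transcripts by RPL10A ratio, the median and quartiles of RPL22-line total minus RPS25-line total, which climbs from −0.46 to 0.41.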

How the data were processed

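The authors deposited RPKM per UCSC transcript for each ribosome library, rounded to 1 decimal per the file headers and values. For the RNA-seq libraries they deposited a column headed RPM, treated as a scaled signal because its sum differs between libraries. The submitters' processing notes name cutadapt, Bowtie2 and, for the RPL22 and RNA-seq libraries, STAR, with the mm10 build. No source used here gives the transcript filter or the footprint lengths.

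Tests used limma 3.58.1 in R 4.3.3 on log2(RPKM + 1) with a variance trend, two-sided, adjusted over all transcripts (Benjamini-Hochberg). The capture ratio was fitted on 4 libraries. Differences between lines were fitted on 12 libraries over common transcripts. With this pseudocount, a fold change of a low transcript is understated. On simulated libraries with 8505 transcripts, 80% of 2-fold and 23% of 1.5-fold changes were recovered among 200 changed, beside 27 and 13 false calls, a larger share of the calls than the threshold allows. For 3-fold and 4-fold changes, 99.5% and 99.0% were recovered, beside 11 and 6 false calls. The simulation drew normally distributed values with the variance that limma estimated for each transcript, and added no effect of a library. Recovery in the deposited libraries may therefore differ. Named transcripts were the 2 per direction with the largest ratio that were called, at or above the median level, and with the higher library at most 25% above the lower in each group. Members, lists and rules were chosen with earlier results of these data known. Whether replicates are separate cultures is not in the labels, and p-values then measure only the spread between these libraries, which may be technical. Capture libraries shared 0.858% identical values and totals 1.16%, so none was a copy. Alternatives were other pseudocounts, a filter at 10 RPKM, other scalings and variance models, a replicate block, and leaving out libraries.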

Additional observations from a re-analysis of the deposited data

Results flagged for a closer look

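A difference between lines was found for 177 transcripts when the RPL10A ratio was set against the RPL22 ratio, and for 5 against the RPS25 ratio (limma interaction contrasts, adjusted p below 0.05, 7605 transcripts). At an unadjusted p below 0.05 the counts were 1807 and 819. Among the named transcripts, uc009jsd.1 differed between lines, with a ratio 1.60 higher on the log2 scale for RPL10A than for RPL22 (SE 0.25, limma adjusted p = 0.0288, and from 0.0142 to 0.115 over the alternatives). The RPL10A-line libraries also chose this transcript, so the difference describes it and is no independent support. Each RPL10A capture lay above each RPL10A-line total, and each RPL22 capture above each RPL22-line total. The RPL22 ratio itself was not called (0.37, SE 0.13, limma adjusted p = 0.166), so its direction in that line was not established.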

How the results depend on the processing

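The 124 calls of the capture became 112 and 141 with pseudocounts of 0.1 and 5, 136 with aligned medians, 152 with scaling to totals and 93 over common transcripts (an alternative added after seeing the data). They became 190 over transcripts of at least 10 RPKM, 38 without a variance trend, 216 with robust moderation, 1302 (577 higher, 725 lower) in a fit of 12 libraries and 6 in a test against 1.5-fold; the last asks a stricter question, and for the others the cause was not tested. Leaving out a library gave 0 in each case, with 1 residual degree of freedom. With a replicate block 202 were called. Same-numbered libraries did not deviate together (r = −0.0036), so numbers were not taken to pair samples.

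Differences from RPS25 numbered 5, or 2 with aligned medians, 3 without a trend, 0 with a replicate block, 1 in a fit of 8 libraries (added after seeing the data) and 0 to 32 without single libraries. Differences from RPL22 numbered 177, or 11 without a trend, 70 with a replicate block, 50 in a fit of 8 libraries (likewise added) and 0 to 727 without single libraries. The ratios of the 4 named transcripts kept their sign in each alternative. Without single libraries their adjusted p rose to between 0.0829 and 0.449 in limma, and uc029sdt.2 had 0.0824 against 1.5-fold. For uc029sdt.2 the difference from RPS25 ran from −1.17 to 0.039, and for uc009vfb.1 that from RPL22 from −1.44 to 1.253, without single libraries. The sign turned without the first RPS25 capture for uc029sdt.2 (0.039), and without the second RPL22 capture (1.253) or the second RPL22-line total (0.020) for uc009vfb.1. Unknown read depth leaves counting error unmeasured.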
